A study of Homo sapiens with 18 samples.

Results

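The 10 genes described here encode the exon junction complex and the first steps of mRNA export: EIF4A3, MAGOH, MAGOHB, RBM8A and CASC3, RNPS1, PYM1, and ALYREF, THOC1 and THOC2. They were taken by gene symbol from a table of 13661 genes measured by polysome profiling, in which all 10 were present. All 10 were also among the 12720 genes kept with a mean of at least 10 reads per library and with reads in each gradient.

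The exon junction complex is placed by the spliceosome on mRNA just upstream of exon junctions and travels with the mRNA to the cytoplasm. Its core is the helicase EIF4A3 clamped on RNA by the RBM8A (Y14) and MAGO heterodimer, with CASC3 (also MLN51 or Barentsz) bound to it, and translating ribosomes remove it with the help of PYM1. The TREX complex, made of the THO subunits, a DDX39 helicase and adaptors such as ALYREF, hands the mRNA to the export receptor. The values below describe where the mRNAs that encode these proteins sat among ribosomes, not where the proteins were.

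The cells were HEK293, a long-established line derived from human embryonic kidney. All groups used here came from HEK293 cells given DMSO vehicle for 12 h, and they differ only in the sucrose-gradient fraction that was sequenced: monosome, light polysome or heavy polysome, with 3 biological replicates each. A cytoplasmic lysate was spun through sucrose, so that mRNAs with more ribosomes ran deeper. The libraries of cells given 100 µM minocycline are not analysed here, so no effect of the drug is described.

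The 9 libraries held 13447139 to 24441159 reads assigned to genes, and the members had between 99 and 16701 reads in a library, the lowest being THOC1 in monosome replicate 2. All 10 of 10 genes listed as expressed in HEK293 were kept, with a summed normalized count of 9799 to 24787 per library. Of 13 markers of other common lines, 5 were in the table and summed to 334 to 1400 normalized counts per library. Most of that sum was GATA3, with a mean of 694, while APOA1, CD34, EPCAM and CDH1 were at 5.51 to 38.1. GATA3 lay above EYA1 (67.4), INA (112), KRT18 (269) and CDH2 (497) of the HEK293 list and below the rest of that list. The HEK293 sum was led by VIM (6323) and NEFM (3778), so the 2 sums do not test the identity of the line. Light polysome replicate 2 stood apart from its group: its log2 values correlated on average at 0.894 with the other light libraries and at 0.940 with the heavy ones. Gradient 2 is made of the 3 libraries of replicate 2. Gene by gene, its load was set against the mean of gradients 1 and 3. The median of these differences was 0.51 for genes with more than 3000 coding nt and -0.43 for genes with 601 to 900. Each member is therefore given for every gradient, and calls that differ without replicate 2 are named.

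Shares are percentages: for each gene, the normalized count of 1 fraction out of the total in that gradient. Mean ribosome load (MRL) is the authors' score that weights these shares by 1 for monosomes, 2.5 for light and 6 for heavy polysomes, so it runs between 1 and 6. The median gene had an MRL of 3.17 ± 0.01 (SD, n = 3 gradients). Since each fraction was scaled to its own typical gene, these values rank genes against each other and do not give the amount of RNA in a fraction. In a bulk lysate, fewer cells with an mRNA and less of it per cell cannot be told apart. Loads were tested as log2 MRL against the median gene of the same gradient, and fractions as log2(normalized count + 1), both with limma and adjusted over all 12720 genes at a threshold of 0.05.

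The members covered much of the range of loads. EIF4A3 had an MRL of 5.09 ± 0.28 and ranked 8 of 12720 genes from the top, while PYM1 had 2.24 ± 0.15 and ranked 11068 (SD, n = 3 gradients). The order from the top was EIF4A3, ALYREF, MAGOH, THOC1, THOC2, MAGOHB, CASC3, RNPS1, RBM8A and PYM1. The values of the 3 gradients overlapped between every pair of neighbours in this order except RBM8A, at 2.41 to 2.77, and PYM1, at 2.10 to 2.39. By the test against the median gene, 3 of the 10 members were called higher in load and 2 lower. Over all genes kept, 22.0% were called higher and 24.7% lower. The members together thus stood near the background of 46.7%, and their median MRL was 3.28.

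**Figure D1:**
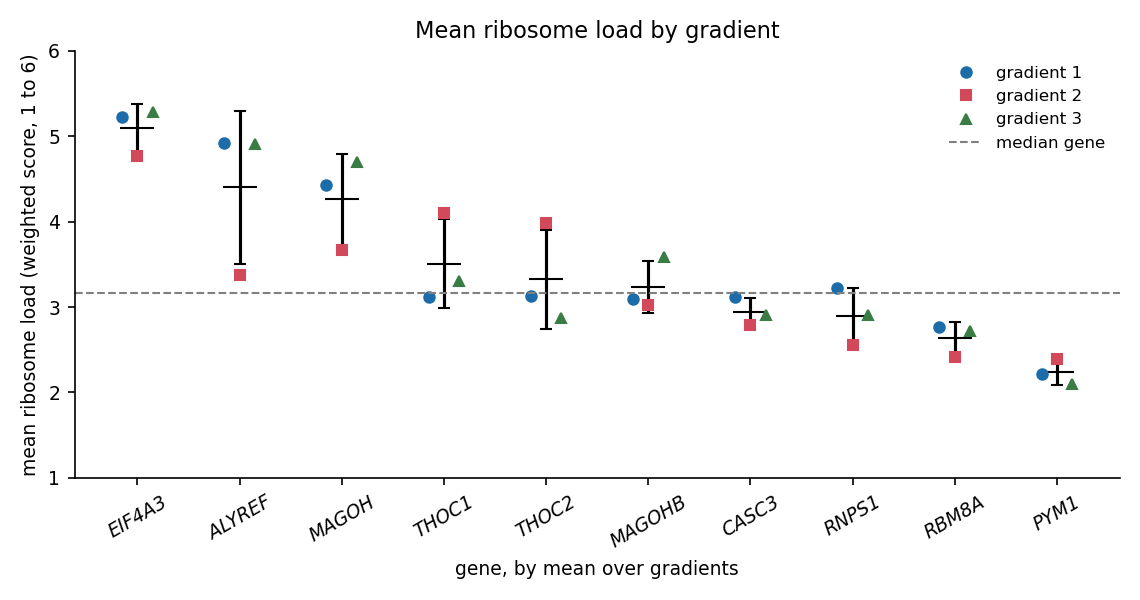
Mean ribosome load of the 10 members, ordered by mean along the x axis, with the weighted score on the y axis. Each point is 1 gradient, the bars give the mean and SD over 3 gradients, and the line marks the median gene. EIF4A3 sits between 4.77 and 5.29 and PYM1 between 2.10 and 2.39.

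EIF4A3, the RNA helicase that anchors the core, had its largest normalized share in heavy polysomes. Its heavy share was 81.8%, 68.8% and 83.0% in gradients 1, 2 and 3. The monosome share was 9.17%, 9.33% and 8.01%, and the light share 9.03%, 21.9% and 8.96%. Heavy polysomes therefore led in every gradient, and the authors' deposited table gives it the strict class of heavy polysomes. That class held 1654 of 13661 genes. The normalized counts were 6253, 3196 and 3598 in heavy polysomes, against 701, 434 and 347 in monosomes. The heavy and monosome libraries did not overlap, nor did the heavy and light ones. EIF4A3 was higher in heavy polysomes than in monosomes by 3.13 on the log2 scale (SE 0.42, limma adjusted p = 0.000119), and its MRL was above the median gene by 0.68 (SE 0.07, limma adjusted p = 0.00035), higher in 3 of 3 gradients.

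Light polysome libraries of EIF4A3 held 689.8, 1018 and 388 normalized counts and overlapped with the monosome libraries. Between light polysomes and monosomes the log2 difference was 0.46, which did not pass the test (limma adjusted p = 0.49). Between heavy and light polysomes it was 2.68 (limma adjusted p = 0.00682). Without replicate 1 this last difference was 2.43 (adjusted p = 0.140) and without replicate 3 it was 2.41 (adjusted p = 0.0659). In those fits limma called 0 and 1 of all genes, with 2490 and 3100 at an unadjusted p under 0.05, and edgeR called 132 and 1052. By Euclidean distance over the 9 shares, the genes most like EIF4A3 were PDHA1, a subunit of pyruvate dehydrogenase, at 3.91 percentage points, the proteoglycan SDC2 at 8.13 and the proteasome subunit PSMD3 at 8.47. Their MRL was 5.03, 5.01 and 5.02. MRL is computed from the same shares, so a value near that of EIF4A3 follows from how these genes were picked.

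MAGOH and MAGOHB are paralogs that encode nearly the same MAGO protein, the partner of RBM8A in the core. The first 300 bases of their coding sequences are shown because a read must fall on a differing base to tell the mRNAs apart, and because the pair carried different loads. The sequences run 5′ to 3′ in the sense of the mRNA and are from GENCODE release 29 on GRCh38, on the minus strand of chromosome 1 and of chromosome 12, and capitals mark bases that differ or have no partner in the other gene.
MAGOH: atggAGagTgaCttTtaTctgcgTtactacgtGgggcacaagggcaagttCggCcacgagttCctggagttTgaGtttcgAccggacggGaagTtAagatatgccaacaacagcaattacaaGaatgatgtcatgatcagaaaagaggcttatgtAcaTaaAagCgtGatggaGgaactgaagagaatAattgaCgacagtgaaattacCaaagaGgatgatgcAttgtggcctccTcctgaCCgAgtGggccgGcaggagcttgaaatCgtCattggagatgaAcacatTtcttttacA
MAGOHB: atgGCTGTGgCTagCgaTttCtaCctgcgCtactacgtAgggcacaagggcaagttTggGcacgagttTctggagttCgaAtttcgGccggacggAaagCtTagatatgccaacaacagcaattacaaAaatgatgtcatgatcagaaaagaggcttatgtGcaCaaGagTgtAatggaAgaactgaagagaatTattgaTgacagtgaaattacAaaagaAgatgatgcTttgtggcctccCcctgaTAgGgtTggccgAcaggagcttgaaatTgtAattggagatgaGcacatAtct
Over the whole aligned coding sequences, 382 were identical, 59 differed and 6 had no partner, an identity of 86.6%. The longest identical run was 38 nt, and 0 of 367 windows of 75 nt, the read length, were shared between the coding sequences. Reads of full length from these coding parts thus differ between the paralogs.

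By normalized shares, MAGOH was weighted to the polysome fractions. Its heavy share was 60.9%, 40.4% and 65.9% in gradients 1, 2 and 3. The light share was 25.4%, 42.7% and 26.6%, and the monosome share 13.7%, 16.9% and 7.50%. Heavy polysomes led in gradients 1 and 3, and in gradient 2 light and heavy shares were close. MAGOH had 3094, 2666 and 3661 normalized counts in heavy polysomes and 1289.9, 2815 and 1475 in light polysomes, against 699, 1113 and 417 in monosomes. Neither polysome fraction overlapped with the monosomes. The excess over monosomes was 2.18 in heavy polysomes (SE 0.42, limma adjusted p = 0.00104) and 1.35 in light polysomes (limma adjusted p = 0.0377), both on the log2 scale. MAGOH was the 1 member called between light polysomes and monosomes, where 18.7% of all genes were called, and this call was lost in 8 of 20 alternatives, without light replicate 2 among them (adjusted p = 0.0743). Its MRL of 4.26 ± 0.54 exceeded the median gene by 0.42 (SE 0.09, limma adjusted p = 0.00700).

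MAGOHB lay close to the median gene instead. Its monosome share was 45.3%, 30.6% and 33.7% in gradients 1, 2 and 3. The light share was 18.2%, 41.4% and 20.9%, and the heavy share 36.5%, 28.1% and 45.4%. Gradient 2 had the highest light share and the lowest heavy share. The gene had 2066, 1306 and 2095 normalized counts in heavy polysomes, against 2566, 1421 and 1555 in monosomes. These libraries overlapped, with a log2 difference of 0.00 (SE 0.39, limma adjusted p = 0.997). The MRL was 3.24 ± 0.30, 0.03 above the median gene in log2 MRL (limma adjusted p = 0.827). Without replicate 2, MAGOHB was lower in light polysomes than in monosomes, with a log2 difference of -1.003 (limma adjusted p = 0.0118), while with all libraries it was -0.52 (adjusted p = 0.380).

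Within a gradient, MAGOH always carried the higher load of the pair. The log2 MRL of MAGOH minus that of MAGOHB was 0.51, 0.28 and 0.39 in gradients 1, 2 and 3. The mean difference was 0.39 (SE 0.07, 95% interval 0.10 to 0.69). An exact two-sided sign-flip permutation test over 3 gradients gave p = 0.25, the smallest it can give, and 0.375 after adjustment over the 6 pairs of members compared. Their mean normalized counts over the libraries were close, 1914 for MAGOH and 1659 for MAGOHB. Per kb of merged annotated exons (1463 and 4856 nt), MAGOH had 3926 ± 529 summed normalized counts, against 1025 ± 123 for MAGOHB (SD, n = 3 gradients). With counts this close, the gap in this second measure comes mainly from the difference in length. The transcripts used here also differ in length, with 756 nt for MAGOH and 2623 nt for MAGOHB.

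**Figure D2:**
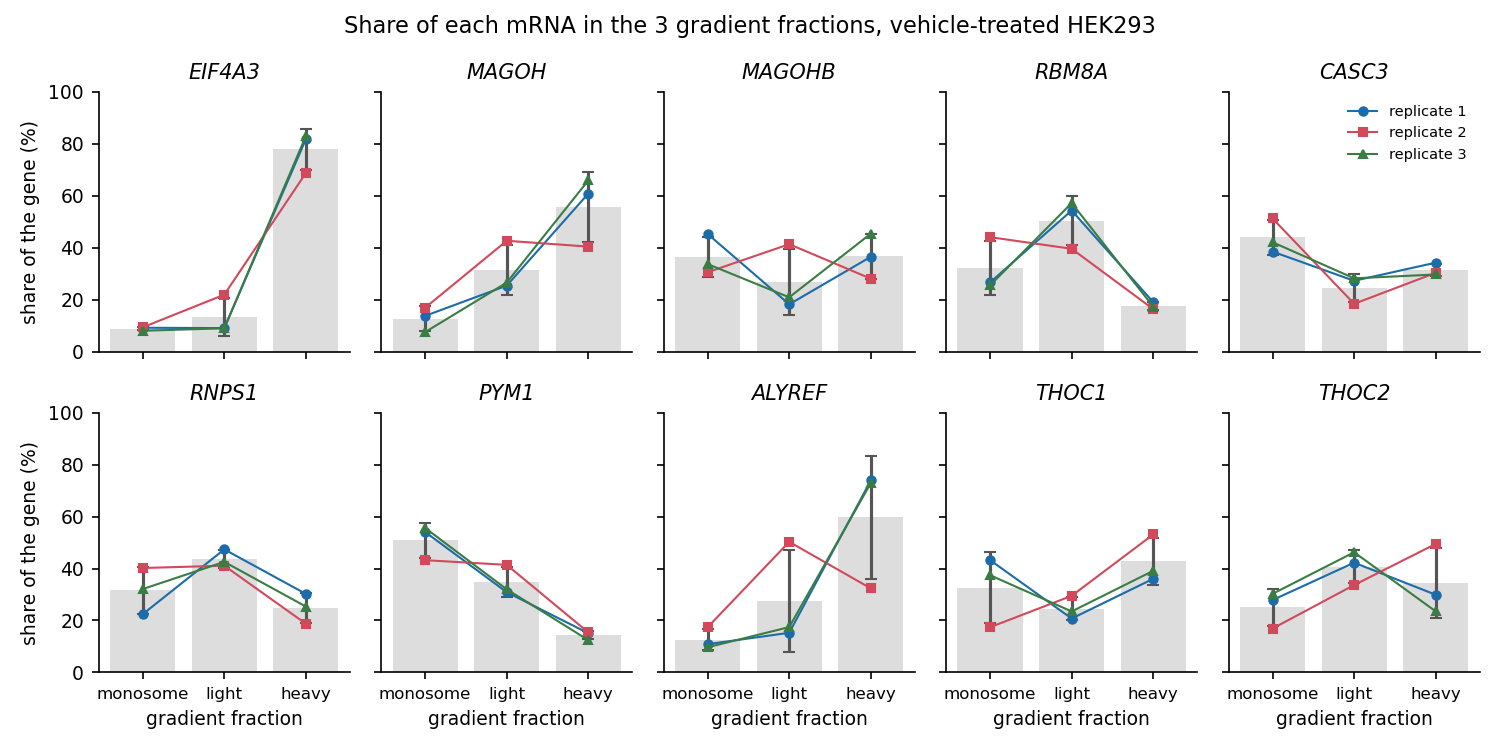
Share of each member in monosomes, light and heavy polysomes, in percent of the gene's normalized count in a gradient. Points joined by lines are the 3 gradients, and bars with error bars the mean and SD. EIF4A3 reaches 83.0% in heavy polysomes, RBM8A 57.2% in light polysomes and PYM1 55.6% in monosomes.

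RBM8A, the RNA-binding partner of MAGO, was highest in light polysomes in gradients 1 and 3 and low in heavy ones throughout. Its light share was 54.3%, 39.6% and 57.2% in gradients 1, 2 and 3. The monosome share was 26.6%, 44.1% and 25.5%, and the heavy share 19.0%, 16.3% and 17.3%. Heavy polysomes held the smallest part in every gradient. In normalized counts, RBM8A had 3278, 2316 and 3573 in heavy polysomes and 9368, 5611 and 11817 in light polysomes, against 4593, 6245 and 5269 in monosomes. The heavy libraries lay below all light and all monosome libraries. RBM8A was lower in heavy than in light polysomes, with a log2 difference of -1.51 (limma adjusted p = 0.0153), a call lost in 5 of 20 alternatives with adjusted p up to 0.273. The heavy over monosome difference of -0.83 did not pass (limma adjusted p = 0.107), although DESeq2 on recovered reads called it (adjusted p = 0.0384).

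The MRL of RBM8A was 2.63 ± 0.19, with a log2 difference from the median gene of -0.27 (SE 0.09, limma adjusted p = 0.0465). This call was lost without any 1 of the 3 replicates, with adjusted p between 0.0763 and 0.183, without the filter on low counts (0.0731), with centring on the mean gene (0.0891) and with the combined polysome share used as the measure (0.845). Compared with EIF4A3, its partner in the core, the load was lower in each gradient. The log2 MRL of EIF4A3 minus that of RBM8A was 0.92, 0.98 and 0.96, with a mean of 0.95 (SE 0.02, 95% interval 0.87 to 1.03, exact permutation p = 0.25, adjusted p = 0.375). RBM8A shares exon sequence with other annotated genes: 14.7% of the 75-nt windows of its transcript recur on the opposite strand in GNRHR2 and 4 other genes, and 2.62% recur in RBM8B on the same strand. Whether strand was used in counting is not given in the sources used here. It is therefore not known whether reads from the stretches shared with opposite-strand genes were counted apart.

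CASC3, a core subunit that joins late, was spread over all fractions. Its monosome share was 38.5%, 51.3% and 42.1% in gradients 1, 2 and 3. The light share was 27.3%, 18.4% and 28.2%, and the heavy share 34.2%, 30.3% and 29.7%. Monosomes led in each gradient. Normalized counts were 1402, 1851 and 1343 in heavy polysomes and 1116, 1122 and 1276 in light polysomes, against 1576, 3129.6 and 1905 in monosomes. The light libraries lay below all others, yet no contrast passed the test with limma: the log2 difference was -0.85 for light polysomes over monosomes (adjusted p = 0.106; 0.0360 with DESeq2) and -0.48 for heavy polysomes over monosomes (adjusted p = 0.272). The MRL was 2.94 ± 0.17 (limma adjusted p = 0.355). EIF4A3 exceeded CASC3 by 0.79 in log2 MRL (SE 0.04, 95% interval 0.64 to 0.95, exact permutation p = 0.25, adjusted p = 0.375), with the same sign in 3 of 3 gradients.

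RNPS1, a serine-rich splicing activator bound to the periphery of the complex, was also highest in light polysomes. Its light share was 47.4%, 41.1% and 42.6% in gradients 1, 2 and 3. The monosome share was 22.4%, 40.2% and 32.1%, and the heavy share 30.2%, 18.7% and 25.3%. Light polysomes led in each gradient, by under 1 percentage point in gradient 2. RNPS1 had 6163, 4166 and 5674 normalized counts in heavy polysomes and 9659, 9147 and 9528 in light polysomes, against 4567, 8948 and 7182 in monosomes. Its light libraries exceeded every heavy and every monosome library, though the lowest light value, 9147, was close to the highest monosome value, 8948. The light over monosome difference of 0.51 (limma adjusted p = 0.419) and the heavy over light difference of -0.84 (limma adjusted p = 0.124, DESeq2 adjusted p = 0.0397) did not pass with limma. The MRL was 2.89 ± 0.34 (limma adjusted p = 0.295). Of the 75-nt windows of its transcript, 12.7% recur in the pseudogene RNPS1P1, so part of its reads could be counted there or left out.

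PYM1, which releases the complex from translated mRNA by binding the RBM8A and MAGO dimer and the small ribosomal subunit, had the lowest load of the members. Its monosome share was 54.1%, 43.2% and 55.6% in gradients 1, 2 and 3. The light share was 30.9%, 41.4% and 32.0%, and the heavy share 15.1%, 15.4% and 12.4%. Monosomes led and heavy polysomes came last in every gradient, and the authors' deposited table puts PYM1 in the strict monosome class. That class held 1549 of 13661 genes. Every member other than EIF4A3 and PYM1 was unassigned or mixed by the authors' strict class, MAGOH and ALYREF among them. The normalized counts were 651, 351 and 541 in heavy polysomes and 1334, 944 and 1393 in light polysomes, against 2335, 986 and 2422 in monosomes. Heavy libraries lay below all light and all monosome libraries. PYM1 was lower in heavy polysomes than in monosomes, with a log2 difference of -1.83 (SE 0.40, limma adjusted p = 0.00232). It was also lower than in light polysomes, with a log2 difference of -1.27 (limma adjusted p = 0.0281). The first call held in 20 of 20 alternatives, and the second was lost in 6 of 20, with adjusted p up to 0.223.

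The load of PYM1 was below the median gene, with a difference of -0.50 in log2 MRL (SE 0.09, limma adjusted p = 0.00366), lower in 3 of 3 gradients. With the combined share in light and heavy polysomes as the measure, the adjusted p was 0.0618. RNPS1 exceeded PYM1 by 0.37 in log2 MRL, with a 95% interval of -0.23 to 0.96 that includes 0 (exact permutation p = 0.25, adjusted p = 0.375). The genes nearest to PYM1 over the 9 shares were ENSG00000213246, named SUPT4H1 in GENCODE, at 6.49 percentage points, NCALD at 10.9 and PTAR1 at 11.2. They encode an elongation factor subunit, a neuronal calcium sensor and a prenyltransferase subunit. Their MRL was 2.30, 2.16 and 2.36, near that of PYM1 because they were picked by the same shares. PYM1 shares 353 nt of exon, 14.6% of its total, with DGKA on the opposite strand, while 0 of the 1152 windows of 75 nt of the transcript used here recur in another gene.

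ALYREF, the TREX adaptor that binds mRNA and recruits the export receptor, was high in heavy polysomes but differed most between gradients. Its heavy share was 73.9%, 32.3% and 72.9% in gradients 1, 2 and 3. The light share was 15.2%, 50.3% and 17.4%, and the monosome share 10.8%, 17.4% and 9.66%. In gradient 2 light polysomes led, in the other gradients heavy ones. ALYREF had 13668, 4544 and 9588 normalized counts in heavy polysomes and 2817, 7064 and 2292 in light polysomes, against 2005, 2440.2 and 1271 in monosomes. Every heavy library exceeded every monosome library, while heavy and light libraries overlapped through replicate 2. The heavy over monosome difference was 2.19 on the log2 scale (SE 0.52, limma adjusted p = 0.00347). The MRL of 4.40 ± 0.89 was above the median gene by 0.45 (SE 0.12, limma adjusted p = 0.0136).

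Both calls of ALYREF were lost without replicate 1, with an adjusted p of 0.0685 for heavy polysomes over monosomes and 0.0552 for MRL. Heavy over light polysomes gave a log2 difference of 1.24 (limma adjusted p = 0.0772), and 2.17 without replicate 2 (adjusted p = 5.44e-05). With all libraries, DESeq2 on recovered reads did call ALYREF higher in heavy than in light polysomes. The MRL of ALYREF in gradient 2 differed from the mean of the other gradients by -1.54, the greatest such shift among the members. For genes of its coding length class, 601 to 900 nt, the median shift was -0.43.

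THOC1 and THOC2, subunits of the THO core of TREX, showed the opposite shift in gradient 2. THOC1 had a heavy share of 36.0%, 53.1% and 39.1% and a light share of 20.7%, 29.5% and 23.5%, against a monosome share of 43.2%, 17.4% and 37.4%. THOC2 had a heavy share of 29.9%, 49.5% and 23.5% and a light share of 42.3%, 33.6% and 46.3%, against a monosome share of 27.9%, 16.9% and 30.2%. Both genes had their highest heavy share and their lowest monosome share in gradient 2. Their MRL was higher in gradient 2 than the mean of the other gradients by 0.89 for THOC1 and 0.98 for THOC2, while the median shift was 0.20 for coding lengths of 1801 to 3000 nt, the class of THOC1, and 0.51 above 3000 nt, the class of THOC2.

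THOC1 had 228, 716 and 294 normalized counts in heavy polysomes, against 274, 235 and 281 in monosomes. THOC2 had 1400.3, 1881 and 1098 in heavy polysomes, against 1305, 642 and 1414 in monosomes. The libraries of both genes overlapped between these fractions. The heavy over monosome difference was 0.47 for THOC1 (limma adjusted p = 0.409) and 0.43 for THOC2 (limma adjusted p = 0.382), and without replicate 2 it was -0.10 and -0.13. The MRL was 3.51 ± 0.52 for THOC1 and 3.33 ± 0.58 for THOC2, and neither passed the test (limma adjusted p = 0.295 and 0.693). Between them the log2 MRL of THOC1 minus that of THOC2 was 0.08, with a 95% interval of -0.20 to 0.36 (exact permutation p = 0.5, adjusted p = 0.5). ALYREF minus THOC1 was 0.32, with a wide interval of -0.98 to 1.61 (exact permutation p = 0.5, adjusted p = 0.5), and its sign was turned in gradient 2.

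Between fractions, 3 members were called higher in heavy polysomes than in monosomes (EIF4A3, MAGOH and ALYREF) and 1 lower (PYM1), where 24.7% of all genes were higher and 24.4% lower, 49.1% together. Of the 10 members, the heavy libraries of 3 lay above all monosome libraries and those of 2, RBM8A and PYM1, below, where this held for 31.4% and 29.0% of all genes. For the other pairs of fractions, the share of all genes without overlap was not counted, so separations named there have no background. Between heavy and light polysomes, 1 member was higher (EIF4A3) and 2 were lower (RBM8A and PYM1), where 14.7% of all genes were higher and 17.5% lower, 32.2% together. Between light polysomes and monosomes, 1 member was higher and 0 were lower with limma (1, CASC3, at an unadjusted p under 0.05 and also with DESeq2), where 8.47% of all genes were higher and 10.2% lower. Without replicate 2, MAGOHB, PYM1 and THOC1 were called lower in this last contrast and RBM8A higher, with log2 differences of -1.003, -0.80, -0.86 and 1.10. In that fit 17.3% of all genes were higher and 18.1% lower. In heavy over light polysomes, MAGOH (1.29), MAGOHB (1.06), ALYREF (2.17) and THOC1 (0.76) were then called higher as well, and RNPS1 (-0.70) and THOC2 (-0.74) lower, all as log2 differences. This made 5 members higher and 4 lower, in a fit where 29.9% of all genes were higher and 30.2% lower.

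**Figure D3:**
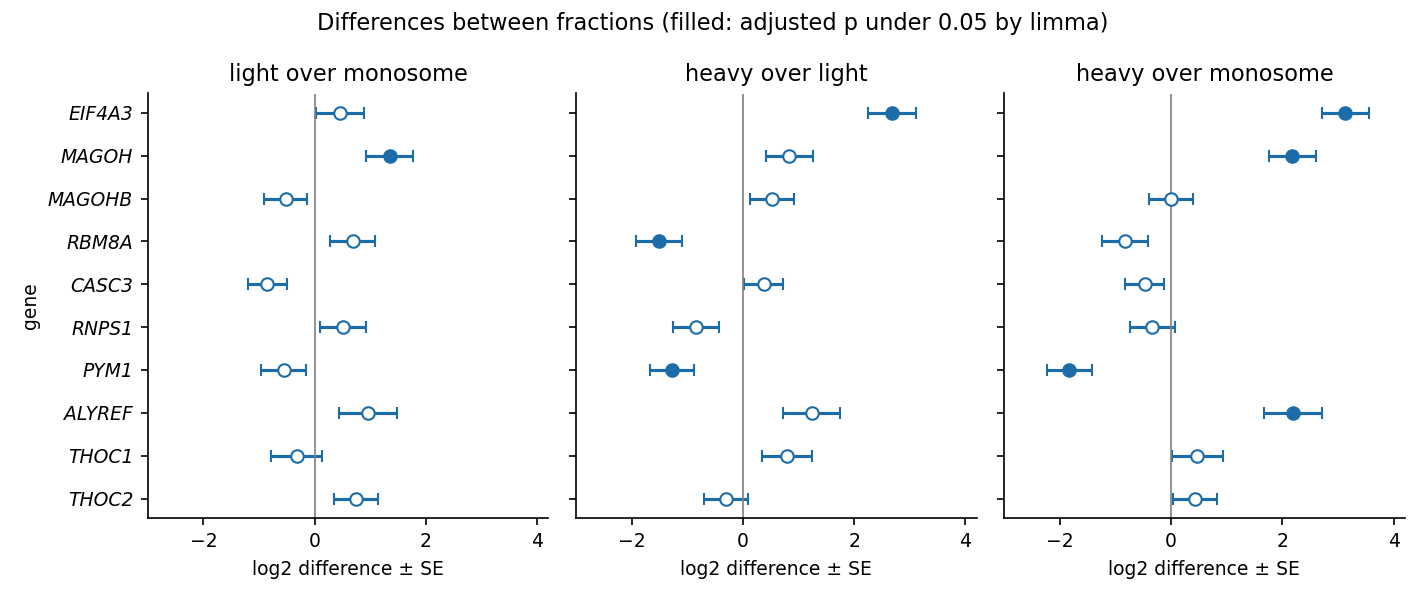
Log2 difference of each member in light polysomes over monosomes, heavy over light polysomes and heavy polysomes over monosomes, left to right, on the log2(normalized count + 1) scale. Bars give the SE from limma and filled points an adjusted p under 0.05. EIF4A3 is at 3.13 and PYM1 at -1.83 in heavy polysomes over monosomes.

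The members differed in level as well as in load. Level here is the normalized count summed over the 3 fractions, per kb of the merged exons of all annotated transcripts. That length can far exceed the transcript used here, as for RNPS1 (8582 against 2298 nt) and EIF4A3 (4967 against 1734 nt). The order below therefore depends on annotation, and the sum, over fractions scaled separately, is not an amount of RNA. ALYREF had the highest level, 9676 ± 1817 normalized counts per kb, and THOC1 the lowest, 112 ± 47.3 (SD, n = 3 gradients). Between these lay MAGOH at 3926 ± 529, RBM8A at 3108 ± 581, RNPS1 at 2526 ± 130 and PYM1 at 1506 ± 490. EIF4A3 followed at 1116 ± 368, MAGOHB at 1025 ± 123, CASC3 at 769 ± 166 and THOC2 at 427 ± 49.3. The gradients did not overlap between ALYREF and MAGOH, RNPS1 and PYM1, CASC3 and THOC2, or THOC2 and THOC1, and they overlapped between the other neighbours. The median gene had a level of 199 normalized counts per kb, so 9 of the 10 members were above it.

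The coding length of an mRNA limits how many ribosomes it can hold, and the median MRL was 2.55 for genes with 301 to 600 coding nt and 3.33 for those with 1201 to 1800. Across 12715 genes, Spearman's rho between MRL and coding length was 0.253, a description over genes that share the same 9 libraries. The members were therefore also set against genes within 20% of their own coding length. MAGOH, with 441 coding nt, had an MRL of 4.26 ± 0.54, against a median of 2.52 for 771 genes of like length, and MAGOHB, with 447 coding nt, had 3.24 ± 0.30 against 2.53. EIF4A3, with 1236 nt, had 5.09 against 3.29, and ALYREF, with 795 nt, had 4.40 against 3.11.

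RBM8A, with 525 coding nt, had an MRL of 2.63 ± 0.19, against 2.75 for genes of like length, a gap smaller than its SD. PYM1, with 615 nt, had 2.24 ± 0.15, against 2.93. The remaining members were closer to the median of their length than PYM1 was. CASC3, with 2112 nt, had 2.94 against 3.31, and RNPS1, with 918 nt, had 2.89 against 3.21. THOC1, with 1974 nt, had 3.51 against 3.31, and THOC2, with 4782 nt, had 3.33 against 3.40. These are descriptions, with no test.

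**Figure D4:**
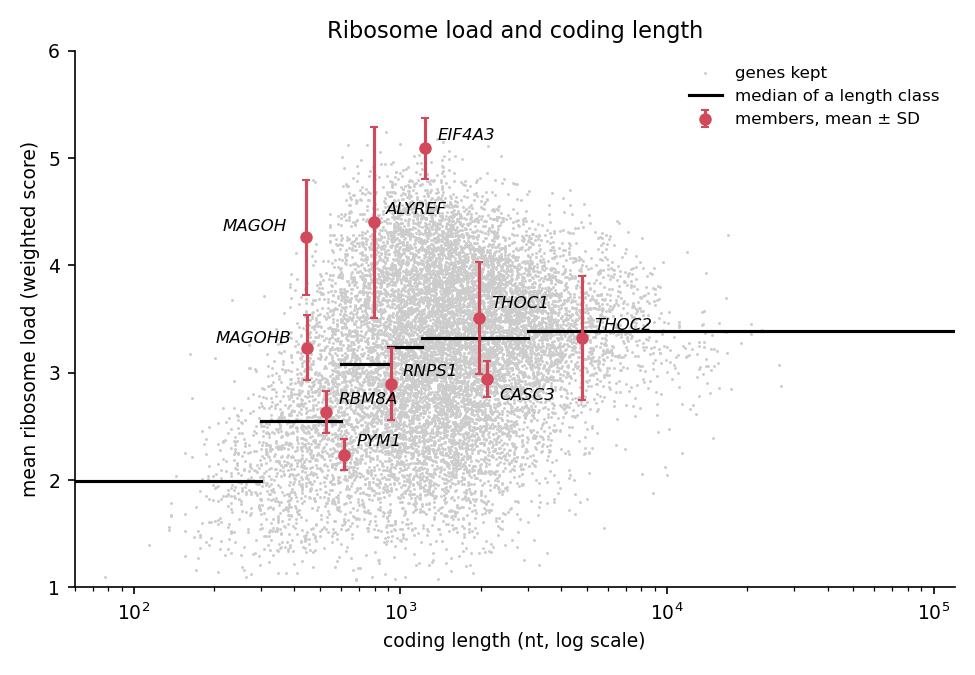
Mean ribosome load (y axis, weighted score) against coding length (x axis, nt, log scale) for the genes kept, with the members as large points with SD over 3 gradients and the median of each length class as a line. MAGOH at 4.26 and EIF4A3 at 5.09 sit well above the line of their class, and PYM1 at 2.24 below it.

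The genes are spread over the genome (GENCODE release 29, GRCh38). EIF4A3 lies at chr17:80135214-80147183, ALYREF at chr17:81887844-81891586 and CASC3 at chr17:40140318-40172183. MAGOH lies at chr1:53226892-53238610 and RBM8A at chr1:145917714-145927678. MAGOHB lies at chr12:10604190-10613623, PYM1 at chr12:55901413-55932618 and RNPS1 at chr16:2253116-2268412. THOC1 lies at chr18:214520-268050 and THOC2 at chrX:123600561-123733056. CASC3 is on the plus strand and the others are on the minus strand.

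The bases around a start codon affect how well a scanning ribosome recognises it, with a purine 3 bases before the ATG and a G right after it being the favoured form. The contexts below, 10 bases on either side of the start codon in capitals, are shown because loads differed so widely between these mRNAs. They were read from the GENCODE transcript of each gene on GRCh38, and those of ALYREF and THOC1 are not shown because their annotated leaders are shorter than 10 bases.
EIF4A3: actctgaatcATGgcgaccacgg
MAGOH: tttgggagccATGgagagtgact
MAGOHB: gggtacaaaaATGgctgtggcta
RBM8A: cgaaggcgagATGgcggacgtgc
CASC3: tctccgtaagATGgcggaccggc
RNPS1: gaaggggagaATGgatttatcag
PYM1: ctcttcggccATGgaagctgccg
THOC2: tgagaggaagATGgcggccgcgg
All 8 of these contexts had the purine and the G, from EIF4A3 to PYM1, while 45.7% of 12358 genes with a readable context did. EIF4A3 and PYM1 are the members with the highest and the lowest load, and a relation of context to load was not tested. An ATG upstream of the start codon was found in 3 of the 8 leaders, namely in MAGOHB, CASC3 and RNPS1, and in 54.6% of genes. A match of letters is a description, not evidence of use.

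Beyond the members, 46 other genes were kept, from lists of the same pathways, of NMD factors and of the 2 eIF4A paralogs of EIF4A3. By MRL against the median gene, 17 of these were called higher, where 22.0% of all genes were, and 6 lower, where 24.7% were. The other 23 were not called. Over all 46 genes the median MRL was 3.65, against 3.21 for all genes kept. Between heavy polysomes and monosomes 15 were called higher and 6 lower, where 24.7% and 24.4% of all genes were. Among the 5 proteins associated with the exon junction complex 0 were called in either direction by MRL with limma, also at an unadjusted p under 0.05, with a median MRL of 3.21. They ranged between CWC22, which brings EIF4A3 to the spliceosome, at 3.48 ± 0.94 and PNN (pinin) at 2.70 ± 0.71.

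The 4 NMD factors that contact the complex had a median MRL of 3.82. Of these, 2 were called higher and the others were not called, where 22.0% of all genes kept were higher and 24.7% lower. UPF3B, which bridges the complex to UPF2, reached 4.83 ± 0.51, while the helicase UPF1 had 3.24 ± 0.59. Of the other eIF4A helicases, which act in initiation, EIF4A1 had 3.91 ± 0.57 and was called higher, and EIF4A2 had 2.37 ± 0.13 and was called lower. EIF4A3 thus exceeded both paralogs in MRL, by more than the SDs.

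Among the 4 other THO subunits, THOC3 was higher at 4.48 ± 0.56 (limma adjusted p = 0.0034) and THOC7 lower at 2.27 ± 0.48 (limma adjusted p = 0.0132), and the remaining genes were not called. Of 8 TREX helicases and adaptors kept, 5 were called higher and 1 lower, as were 22.0% and 24.7% of all genes kept. Their median was 3.86, between POLDIP3 at 4.25 ± 0.41 and ERH at 2.44 ± 0.06. SARNP, ZC3H11A and LUZP4 of this list are not analysed here. The cap-binding subunit NCBP1 was called higher at 3.86 ± 0.51, and NCBP2 was not called at 3.28 ± 0.20.

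The export receptor NXF1 had an MRL of 3.32 ± 0.56 and its cofactor NXT1 of 3.13 ± 0.19, neither called, while the paralog NXT2 was lower at 2.12 ± 0.06. In TREX-2, which links transcription to the pore, 1 of 6 genes was called higher and 2 lower. The median there was 3.47, between CETN3 (centrin) at 3.91 ± 0.33 and SEM1 at 2.02 ± 0.19. Of 9 genes of pore exit and mRNP remodelling, 4 were called higher and the others were not called, with a median of 3.65, between RAE1 at 4.60 ± 0.22 and NUP42 at 3.11 ± 0.06. Over all genes kept, 22.0% were called higher and 24.7% lower, and no list was tested as a set. The SR proteins that act as export adaptors had loads of 4.51 ± 0.31 for SRSF1 and 4.28 ± 0.45 for SRSF7, both called higher, and 3.69 ± 0.58 for SRSF3, not called.

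**Figure D5:**
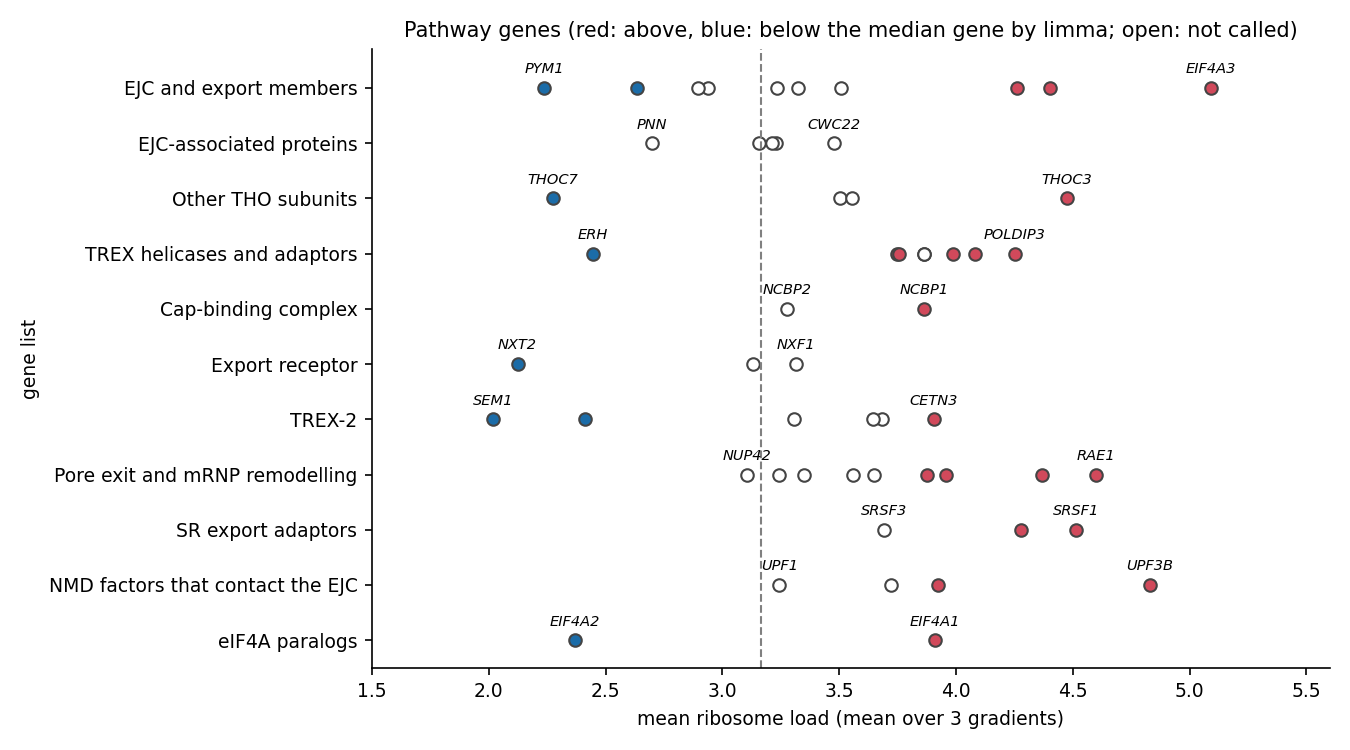
Mean ribosome load (x axis, weighted score) of the members and of each list of pathway genes or paralogs, 1 point per gene as the mean over 3 gradients, with the line at the median gene. The members span 2.24 to 5.09, and UPF3B reaches 4.83 among the NMD factors.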

How the data were processed

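Polysome fractions of HEK293 cells given DMSO vehicle were sequenced as single-end reads of 75 nt, 3 biological replicates per fraction, per the labels. The submitters' processing notes name featureCounts and GRCh38, and no source used here gives the aligner, the strand setting or the scaling. In the deposited table the signal of each library is the read count of a gene over a size factor, and dividing it by its smallest step gave whole reads for 100% of values at a tolerance of 0.01. The deposited percent values split each gene over the fractions that carry 1 replicate number. The authors' deposited mean ribosome load is a score, recomputed from the percentages to within 7.83e-10. The authors' deposited log2 ratios, log2 fold change and adjusted p-value were not used for any result.

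The filter asked for reads in each gradient and on average 10 or more recovered reads per library, which kept 12720 of 13661 genes. Fractions were compared with limma 3.58.1 (R 4.3.3, trend) on log2(normalized count + 1), the 9 libraries in 1 fit with fraction as the only term. MRL was tested with limma as log2 MRL minus the median of its gradient, against 0. Tests were two-sided with Benjamini-Hochberg adjustment over the genes kept. Fold changes on this scale understate the change of low genes, and library depth sets their counting error. The design named limma for normalized counts, so edgeR 4.0.16 and DESeq2 1.42.0 on the recovered reads served as alternatives. Scripts were tested on simulated data. Gene models came from GENCODE release 29, and the pairwise differences between members were tested by exact sign-flip permutation.

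The labels give each replicate number as a batch of its own, so same-numbered libraries are paired by the labels. Deviations from the fraction mean correlated at 0.035 on average between same-numbered libraries (-0.539 to 0.391) and at -0.011 between others. Named genes were all members, the highest and lowest gene by MRL of each list of other genes (every gene in lists of 3 or fewer), and the 3 genes nearest to the members with the highest and lowest load. The members and the lists were chosen with earlier results of these data known.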

Additional observations from a re-analysis of the deposited data

How the results depend on the processing

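The heavy over monosome and MRL results of EIF4A3 and MAGOH and the heavy over monosome result of PYM1 kept their direction and their call under every alternative run. With the replicate number as a block, 6274 genes were called for heavy polysomes over monosomes, 2424 for light polysomes over monosomes and 4302 for heavy over light polysomes, against 6246, 2380 and 4097 without it, and no call of a member changed. edgeR called 6257, 2414 and 4263 genes and DESeq2 6600, 2952 and 4908. With DESeq2, 2 members rather than 1 were lower in heavy polysomes than in monosomes, and 1 rather than 0 was lower in light polysomes than in monosomes. Between heavy and light polysomes, DESeq2 called 2 members rather than 1 higher, with ALYREF added. It called 3 rather than 2 lower, with RNPS1 added. Among the upper 6360 genes by abundance, 3689 were called for heavy over monosome, 1309 for light over monosome and 3545 for MRL, and the log2 MRL of MAGOHB minus that of the median gene was -0.0087; fewer genes are tested there. Without the filter on low counts, and with centring on the mean gene, 1 member rather than 2 was called lower in MRL. With the combined polysome share as the measure, 0 members were called lower with limma, MAGOHB stood at -0.13 and THOC1 at -0.055 against the median gene on the log2 scale, and 2548 genes were higher and 1470 lower, against 2798 and 3139 by MRL. With weights of 1, 3 and 8 the members' median MRL was 4.16.

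Leaving out replicates or single libraries gave 3137 to 7814 calls for heavy over monosome, 562 to 4507 for light over monosome, 0 to 7651 for heavy over light and 3422 to 7264 for MRL. Members called lower numbered 1 to 2 for heavy over monosome, 0 to 3 for light over monosome, 0 to 4 for heavy over light and 1 for MRL, and members called higher 0 to 2 for light over monosome and 0 to 5 for heavy over light. Their median MRL was 3.14 to 3.36. Results whose sign turned had these ranges: in heavy over monosome MAGOHB -0.22 to 0.26, RNPS1 -0.72 to 0.046, THOC1 -0.10 to 0.84 and THOC2 -0.13 to 0.83, in light over monosome THOC1 -0.86 to 0.044, in heavy over light THOC2 -0.74 to 0.029, and in MRL MAGOHB -0.051 to 0.076 and THOC2 -0.078 to 0.15. The cause of these changes was not tested. The number of replicates, 3 per fraction, and for THOC1 a lowest library of 99 reads, limit the precision.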
